A study of Mus musculus with 6 samples.

Results

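The angiopoietin and Tie genes encode a ligand and receptor system of blood and lymphatic endothelium. The set described here holds 7 of the 18482 genes in the deposited count table, chosen by symbol: the angiopoietins Angpt1, Angpt2 and Angpt4, the receptors Tek (TIE2) and Tie1, the phosphatase Ptprb (VE-PTP) and the matrix protein gene Svep1. All 7 had enough reads to be tested among the 14856 genes that passed a filter on low counts. The RNA came from mouse ear skin collected on postnatal day 21. In the lecko mice Kdr, which encodes VEGFR2, had been deleted in lymphatic endothelium, and they were set against littermates labelled only as controls. Each group held 3 libraries, and the mice of both groups had been treated with tamoxifen. The Cre driver, the allele carried by the controls and the tamoxifen schedule of these mice are not stated in the labels, nor is the animal behind each library. The p-values below therefore set a group difference against the spread between these 6 libraries, which may be partly technical.

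ANGPT1, made mainly by mural and other mesenchymal cells, activates TIE2 and steadies vessel walls. ANGPT2, released by endothelial cells, can block or activate TIE2 depending on context and is needed for normal lymphatic growth in the mouse, and ANGPT4 is a further TIE2 ligand. TIE1 binds no angiopoietin on its own with high affinity but joins TIE2 and modifies its signal. VE-PTP removes phosphate from TIE2, VEGFR2 and VE-cadherin, while SVEP1, secreted largely by mesenchymal cells, has been reported to bind TIE1 and is required for lymphatic vessel formation in mouse and zebrafish.

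The angiopoietins and the receptors are gene families, so the extent to which reads could be divided between relatives was examined first. In the alignment of coding sequences Angpt1 and Angpt2 shared 62.5% of aligned bases, Angpt1 and Angpt4 56.9%, Angpt2 and Angpt4 57.8%, and Tek and Tie1 54.9%. The longest identical run in any of these pairs was 18 bases, between Tek and Tie1. The most similar 90-base stretches that lie within a single exon are shown because they are where reads of relatives are hardest to separate, with capitals marking bases identical in all genes of the family (GENCODE M21, GRCm38, coding strand).
Angpt1, exon 6, chr15:42468159-42468248, minus strand: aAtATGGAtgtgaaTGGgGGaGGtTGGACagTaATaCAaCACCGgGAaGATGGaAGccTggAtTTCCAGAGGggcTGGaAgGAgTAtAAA
Angpt2, exon 6, chr8:18699071-18699160, minus strand: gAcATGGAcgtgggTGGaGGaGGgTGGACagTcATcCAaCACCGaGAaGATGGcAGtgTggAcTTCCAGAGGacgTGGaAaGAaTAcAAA
Angpt4, exon 6, chr2:151936676-151936765, plus strand: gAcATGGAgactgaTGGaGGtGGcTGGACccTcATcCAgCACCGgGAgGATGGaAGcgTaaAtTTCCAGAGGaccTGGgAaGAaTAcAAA
Tek, exon 17, chr4:94858888-94858977, plus strand: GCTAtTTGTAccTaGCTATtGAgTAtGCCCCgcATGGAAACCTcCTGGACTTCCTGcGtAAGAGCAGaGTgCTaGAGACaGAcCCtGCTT
Tie1, exon 17, chr4:118475525-118475614, minus strand: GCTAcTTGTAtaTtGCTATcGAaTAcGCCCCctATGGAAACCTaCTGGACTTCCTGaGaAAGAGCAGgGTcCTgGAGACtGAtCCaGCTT
The 3 angiopoietin stretches shared 59 of 90 bases and the 2 receptor stretches 72 of 90, with differences scattered along each stretch. No run of 50 bases in any transcript of a member occurred in another member. Runs of 50 bases that occur in genes outside the set made up 0.751% of those of Svep1, 0.121% of Tie1 and 0.075% of Ptprb, and 0 of those of the other 4 members. Antisense genes are a separate limit, since the sources used here do not give the strand setting of the counting. The antisense gene Gm17473 overlaps 737 exon bases of the coding transcript of Angpt1, and Gm26889 overlaps 1000 exon bases of that of Svep1. Whether reads from those stretches were told apart by strand is not known.

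Depth was nearly equal, with total estimated counts of 17550952 to 17825135 per library in lecko skin and 17242921 to 17678754 in control skin. The targeted gene differed in the labelled direction. Kdr was at 9.76, 11.2 and 10.2 CPM (counts scaled to library size) in lecko libraries 1 to 3, against 32.6, 31.3 and 38.5 CPM in control libraries 1 to 3, and its log2 fold change was -1.72 (adjusted p = 0.00026, edgeR quasi-likelihood with Benjamini-Hochberg correction). Summed counts of 4 Y-linked genes were 4, 21 and 9 in the lecko libraries, against 18, 4272 and 4564 in controls 1 to 3, so control 1 was the sole control with few Y-linked reads, as in the lecko libraries. Skin markers were present in every library: 10 keratinocyte genes summed to 26130 to 27512 CPM in lecko skin and 25999 to 29482 CPM in control skin.

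Per length of transcript, the endothelial receptor Tie1 and the matrix gene Svep1 stood highest and Angpt4 lowest. In lecko skin the order was Svep1 at 9.29 ± 0.118, Tie1 at 7.58 ± 0.316, Tek at 4.87 ± 0.367, Ptprb at 4.66 ± 0.700, Angpt2 at 4.06 ± 0.521, Angpt1 at 2.53 ± 0.281 and Angpt4 at 1.502 ± 0.045 CPM per kb (SD, n = 3). In control skin it was Tie1 at 8.98 ± 0.642, Svep1 at 6.56 ± 1.39, Ptprb at 5.56 ± 0.715, Tek at 5.26 ± 0.711, Angpt2 at 4.37 ± 0.466, Angpt1 at 2.22 ± 0.314 and Angpt4 at 1.20 ± 0.191 CPM per kb (SD, n = 3). Neighbours whose libraries overlapped were Tek with Ptprb and Ptprb with Angpt2 in lecko skin, and Svep1 with Ptprb, Ptprb with Tek and Tek with Angpt2 in control skin. Angpt2 stood above Angpt1 in every library on this scale. The place of Svep1 depended on the length used: over the union of all its annotated exons it was at 6.71 CPM per kb in lecko skin and 4.73 CPM per kb in control skin. On that scale Tie1, Tek and Ptprb were at 6.31, 4.81 and 4.16 CPM per kb in lecko skin, against 7.47, 5.19 and 4.96 CPM per kb in control skin.

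**Figure D1:**
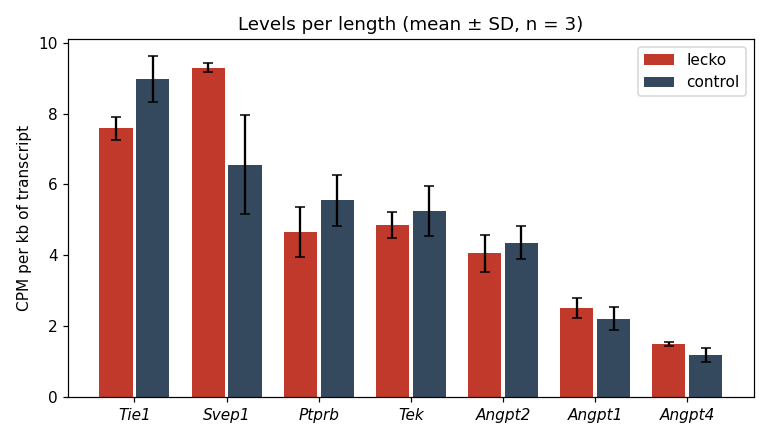
Mean level of each member in CPM per kb of its coding transcript, lecko (red) left of control (dark), with bars of 1 SD (n = 3 libraries each). Svep1 at 9.29 in lecko skin and Tie1 at 8.98 in control skin are the highest bars, and Angpt4 the lowest in both groups.

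None of the members passed the test between lecko and control skin. By edgeR, with p-values adjusted over all 14856 genes, 0 of 7 were called, where 3 genes in all (0.0202%) were. DESeq2 and limma-voom also called 0 members. At an unadjusted p under 0.05, 1 member was higher (Svep1) and 1 lower (Tie1) by edgeR, against 4.89% of all genes higher and 3.68% lower, and DESeq2 and limma-voom each gave 2 members at this level. The lecko libraries lay wholly above the controls for Svep1 and Angpt4 (7.37% of all genes did so) and wholly below for Tie1 (7.23% of all genes). The median log2 fold change was -0.11 over the members and 0.01 over all genes. In bulk skin, fewer cells of a type and less RNA per cell cannot be told apart, for this and every value below.

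**Figure D2:**
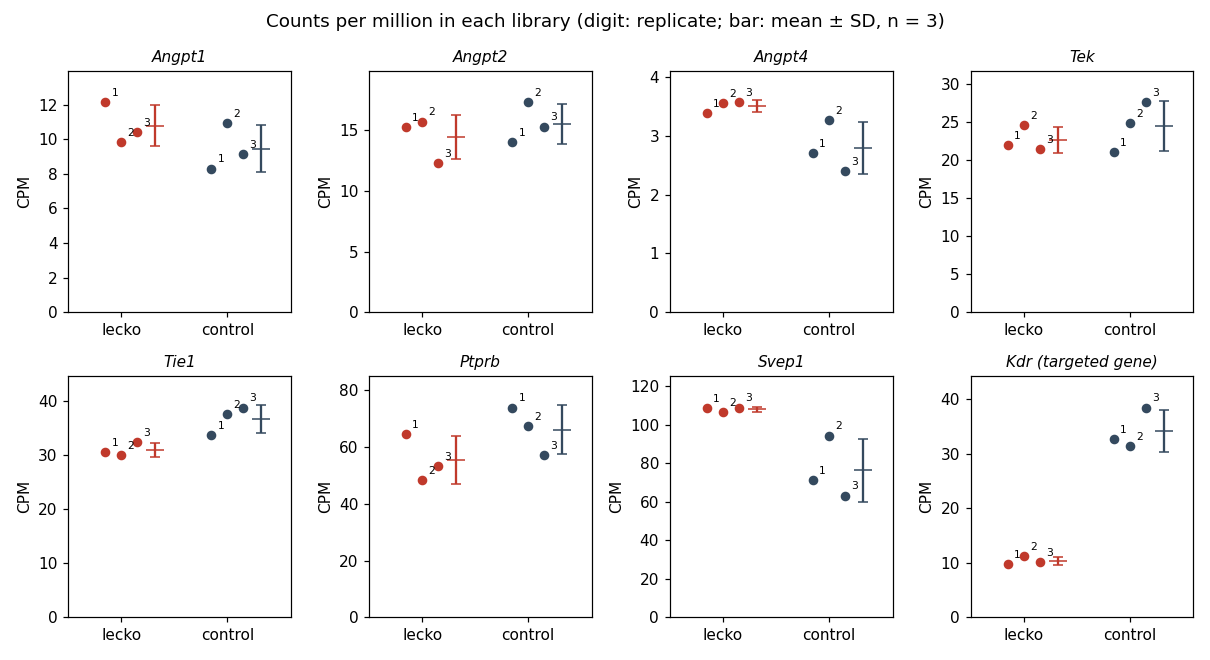
CPM of each member and of Kdr in every library, lecko (red) left of control (dark). Digits give the replicate, and bars the mean ± SD (n = 3 each). Svep1 and Angpt4 have all lecko points above all control points, Tie1 has all below, and the groups overlap for the other members.

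Among the ligands, Angpt1 (gene 11600, chromosome 15, 42424667 to 42676977, minus strand) was at 12.1, 9.84 and 10.4 CPM in lecko libraries 1 to 3, against 8.30, 10.9 and 9.13 CPM in controls 1 to 3. The groups overlapped through control 2, which stood above lecko libraries 2 and 3. The log2 fold change was 0.19 (SE 0.14), with a 95% interval of -0.12 to 0.50 and adjusted p = 0.72 by edgeR. It was 0.38 with sex, taken from the Y-linked reads, as a covariate and 0.37 against control 1 alone. No lecko library had many Y-linked reads, so both fits take the group difference from control 1. They are not independent of each other, here and for the other members.

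Angpt2 (gene 11601, chromosome 8, 18690263 to 18741562, minus strand) was at 15.3, 15.7 and 12.3 CPM in lecko libraries 1 to 3, against 14.0, 17.3 and 15.3 CPM in controls 1 to 3. The lowest library was lecko 3 and the highest control 2, and the groups overlapped. The log2 fold change was -0.11 (SE 0.12, 95% interval -0.39 to 0.17, adjusted p = 0.83 by edgeR), and it was 0.04 with sex as a covariate and 0.04 against control 1 alone, so its direction depended on the controls with many Y-linked reads. Ratios of lecko over control below 0.765 or above 1.13 lay outside the interval of the fit with all libraries.

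Angpt4 (gene 11602, chromosome 2, 151911207 to 151945337, plus strand) rested on few reads, 60, 63 and 63 in lecko libraries 1 to 3 and 47, 57 and 42 in controls 1 to 3. This corresponds to 3.39, 3.56 and 3.58 CPM in lecko skin, against 2.71, 3.28 and 2.398 CPM in control skin. The groups did not overlap, although lecko 1 and control 2 differed by 3 reads. The log2 fold change was 0.33 (SE 0.18, 95% interval -0.07 to 0.72, adjusted p = 0.63 by edgeR).

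The balance of the ligands, which hardly depends on how libraries are scaled, was taken as the log2 ratio of Angpt2 over Angpt1 reads within a library. It was 0.33, 0.67 and 0.24 in lecko libraries 1 to 3, against 0.75, 0.66 and 0.74 in controls 1 to 3. The ratio was lowest in lecko 3 and lecko 1, while lecko 2 lay among the controls. An exact two-sided permutation test of the difference between the means, -0.30, gave p = 0.2, where 0.1 is the least that 3 libraries against 3 can reach.

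Of the receptors, Tek (gene 21687, chromosome 4, 94739086 to 94874976, plus strand) was at 22.0, 24.6 and 21.4 CPM in lecko libraries 1 to 3, against 21.0, 24.8 and 27.6 CPM in controls 1 to 3. Control 1 was the lowest of all libraries and control 3 the highest, so the groups overlapped. This gave a log2 fold change of -0.11 (SE 0.11, 95% interval -0.36 to 0.14, adjusted p = 0.80 by edgeR). It was 0.11 with sex as a covariate and 0.10 against control 1 alone, so the direction for Tek was not the same in these fits.

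Tie1 (gene 21846, chromosome 4, 118471191 to 118489849, minus strand) was at 30.6, 30.0 and 32.5 CPM in lecko libraries 1 to 3, against 33.8, 37.6 and 38.8 CPM in controls 1 to 3. Every lecko library lay below every control, with lecko 3 and control 1 the closest pair. The log2 fold change was -0.24 (SE 0.08, 95% interval -0.42 to -0.07), the unadjusted p was 0.0108 and the adjusted p = 0.50 by edgeR, so the difference did not pass over all genes. Its direction was negative in all 16 alternative fits, from -0.31 to -0.12. The values nearest 0 were -0.12 with sex as a covariate and -0.13 against control 1 alone, so the size depended on the controls with many Y-linked reads.

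The phosphatase gene Ptprb (gene 19263, chromosome 10, 116275502 to 116389538, plus strand) was at 64.7, 48.5 and 53.2 CPM in lecko libraries 1 to 3, against 74.0, 67.4 and 57.1 CPM in controls 1 to 3. Lecko 1 stood above control 3, so the groups overlapped. Its log2 fold change was -0.25 (SE 0.13, 95% interval -0.56 to 0.05, adjusted p = 0.62 by edgeR). The value was negative in all 16 alternative fits, from -0.42 to -0.17. It was -0.42 both with sex as a covariate and against control 1 alone.

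**Figure D3:**
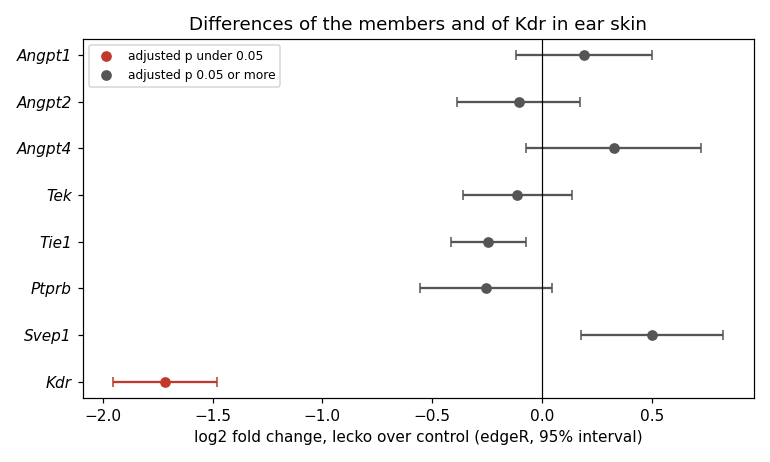
Log2 fold change of each member and of Kdr, lecko over control, from edgeR, with bars for the 95% interval (unadjusted). The intervals of Svep1 (0.18 to 0.82) and Tie1 (-0.42 to -0.07) lie off 0, and Kdr is the sole gene shown that passed the adjusted threshold.

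The receptors and the phosphatase are endothelial, and the summed level of other endothelial genes was also lower in lecko skin. A list of 30 blood and pan-endothelial genes, none of them a member, summed to 1055 to 1132 CPM in lecko skin and 1167 to 1214 CPM in control skin, with no gene at 0 in any library. Cd34 is among them and also in the fibroblast list used below. Of the 30 genes 0 passed edgeR's test in either direction, and 23 had a negative log2 fold change (median -0.18). At an unadjusted p under 0.05, 12 were lower and 0 higher, against 3.68% and 4.89% of all genes. The lecko libraries lay wholly below the controls for 13 genes of the list (7.23% of all genes). Set against the mean log2 CPM of this list within each library, Tek differed by 0.06 between lecko and control skin, Tie1 by -0.08, Ptprb by -0.09 and Angpt2 by 0.06. The exact permutation p-values (two-sided) of these differences were 0.7, 0.3, 0.6 and 0.8, and the groups overlapped for each. Tie1 relative to the list was at 0.39, 0.39 and 0.58 in lecko libraries 1 to 3, against 0.43, 0.59 and 0.57 in controls 1 to 3, so the separation of its CPM values between groups was not seen on this scale.

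Lymphatic endothelial genes, the cells in which Kdr was deleted, gave another scale, chosen after the data were examined. Of the 18 genes in this list, Lyve1 is also in the macrophage list and Thy1 in the fibroblast list. The lymphatic genes summed to 1047 to 1070 CPM in lecko skin and 1058 to 1159 CPM in control skin. Over the 17 tested the median log2 fold change was -0.10, with values from -0.58 to 0.38 and 0 called by edgeR. At an unadjusted p under 0.05, 4 were lower and 2 higher, against 3.68% and 4.89% of all genes. Tie1 relative to this list was at -0.23, -0.25 and -0.09 in lecko libraries 1 to 3, against -0.03, -0.01 and 0.14 in controls 1 to 3. On this scale the groups did not overlap, and lecko minus control was -0.22 (p = 0.1 by the same exact test, the smallest possible). The mean log2 CPM of the list differed by only -0.02, so this value is close to the log2 fold change of Tie1 itself, -0.24. The share of Tie1, Tek and Ptprb RNA that came from lymphatic vessels was not measured.

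Ratios between these 3 genes within a library overlapped between groups. The log2 ratio of Tie1 over Tek was 0.48, 0.28 and 0.60 in lecko libraries 1 to 3, against 0.68, 0.60 and 0.49 in controls 1 to 3 (difference -0.14, exact permutation p = 0.3). That difference was -0.05 without lecko 2, -0.21 without lecko 3, -0.09 without control 1 and -0.23 against control 1 alone. The log2 ratio of Ptprb over Tek was 1.55, 0.97 and 1.31 in lecko libraries 1 to 3, against 1.81, 1.44 and 1.05 in controls 1 to 3 (difference -0.15, exact permutation p = 0.7). Ptprb over Tek spread widely within both groups, with libraries 1 the highest in each.

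Svep1 (gene 64817, chromosome 4, 58042796 to 58206596, minus strand) had the largest difference of the members. It was at 109, 107 and 109 CPM in lecko libraries 1 to 3, against 71.2, 94.5 and 63.3 CPM in controls 1 to 3. The lecko libraries were close together, at 108 ± 1.37 CPM, and the controls spread over 76.3 ± 16.2 CPM (SD, n = 3 each), with control 2 nearest to the lecko values. The log2 fold change was 0.50 (SE 0.14, 95% interval 0.18 to 0.82), a ratio of 1.42, with an unadjusted p of 0.00777 and adjusted p = 0.49 by edgeR, rank 236 of all genes by p. Without control 2 the log2 fold change was 0.68 and the adjusted p = 0.0129 by edgeR, past the threshold with 36 genes in all higher and 1 lower in that fit, and over all alternatives the adjusted p lay between 0.0129 and 0.938. By DESeq2 the adjusted p was 0.0703.

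Fibroblast genes followed a similar order over the controls. The 14 genes of the fibroblast list summed to 30055, 28794 and 27339 CPM in lecko libraries 1 to 3, against 27726, 36481 and 22795 CPM in controls 1 to 3, so control 2 was highest and control 3 lowest in both this sum and Svep1. Of these genes 0 were called, 2 were higher at an unadjusted p under 0.05 (4.89% of all genes were), and the median log2 fold change was 0.05. Set against the mean log2 CPM of this list, a scale chosen after the data were examined, Svep1 was at -1.71, -1.63 and -1.57 in lecko libraries 1 to 3, against -2.12, -1.98 and -2.13 in controls 1 to 3. The control spread was 0.08 on this scale (SD, n = 3), the groups did not overlap, and lecko minus control was 0.44 (p = 0.1 by the exact permutation test, the smallest possible). Leaving out each library in turn gave 0.41 to 0.49.

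Svep1 was also set against other scales. Relative to the endothelial list the difference was 0.69, relative to the lymphatic list 0.54, and relative to 16 pericyte and smooth muscle genes 0.68, each without overlap (exact permutation p = 0.1, the smallest possible). Against the endothelial and pericyte lists this outcome was fixed in advance. In every lecko library the CPM of Svep1 lay above all controls, and the mean log2 CPM of both lists below all controls. These ratios therefore add nothing to the separation of Svep1 itself. The pericyte and smooth muscle genes summed to 991 to 1040 CPM in lecko skin and 1082 to 1174 CPM in control skin, 0 were called and 6 were lower at an unadjusted p under 0.05 (3.68% of all genes were). Over Angpt1, the other member made mainly outside endothelium, the log2 ratio of Svep1 was 3.15, 3.42 and 3.38 in lecko libraries 1 to 3, against 3.08, 3.10 and 2.78 in controls 1 to 3 (difference 0.33, exact permutation p = 0.1). Angpt1 itself differed by 0.11 relative to the fibroblast list, with overlap (p = 0.4, same exact test), and by 0.34 relative to the pericyte and smooth muscle list, without overlap (p = 0.1). The CPM of Angpt1 overlapped, while the mean log2 CPM of the pericyte list was 5.02 to 5.12 in lecko skin and 5.19 to 5.25 in control skin. These scales were chosen after the data were examined. The difference of Angpt1 relative to the fibroblast list was 0.06 without lecko 1, 0.04 without control 1, 0.19 without control 3 and 0.25 against control 1 alone.

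**Figure D4:**
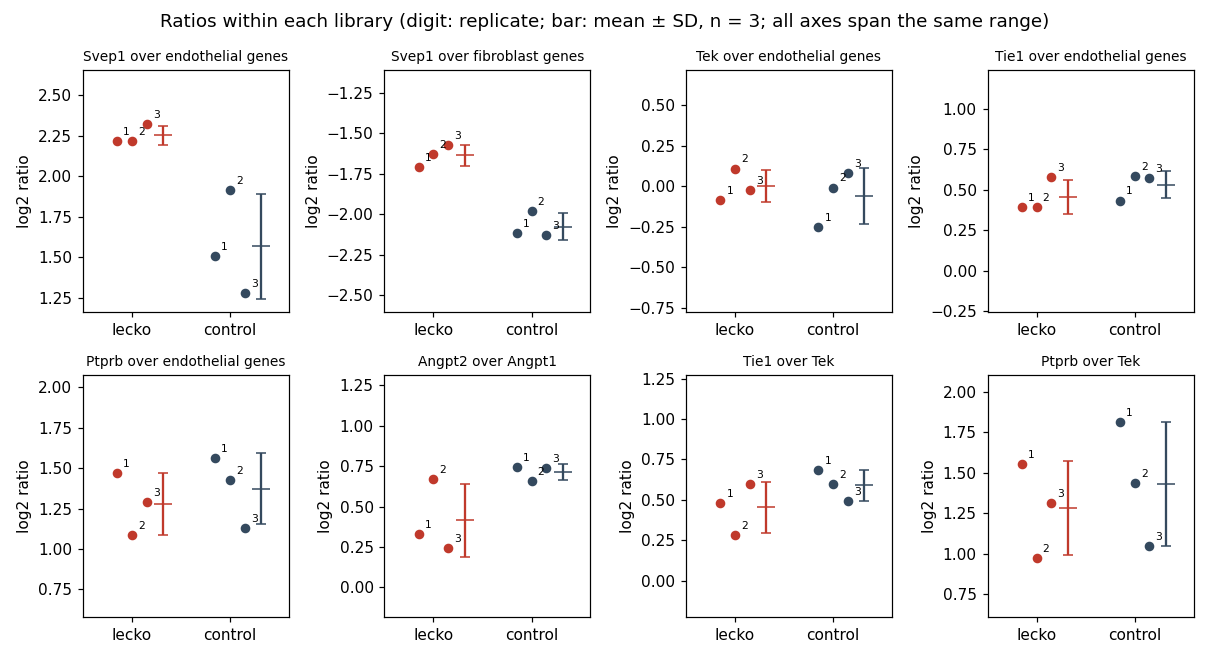
Log2 ratios within each library, lecko (red) left of control (dark), with the replicate as a digit and bars of mean ± SD (n = 3 each). All axes span the same range. Svep1 separates the groups against endothelial genes, where its CPM and the list each already did, and against fibroblast genes. The other 6 ratios overlap.

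The marker sums of other cell types are given beside the members, and their part in the values of the members was not tested. The sums of the groups overlapped for macrophages and leukocytes and did not overlap for skeletal muscle. Tek is also expressed by some macrophages. The 12 macrophage genes summed to 710 to 939 CPM in lecko skin and 502 to 816 CPM in control skin (3 higher at an unadjusted p under 0.05, 0 called), and 10 leukocyte genes to 488 to 632 CPM in lecko skin and 346 to 492 CPM in control skin (5 higher at an unadjusted p under 0.05, 0 called). The 10 skeletal muscle genes summed to 4768 to 6056 CPM in lecko skin and 6333 to 7111 CPM in control skin (7 lower at an unadjusted p under 0.05, 0 called). Of all genes, 4.89% were higher and 3.68% lower at this level. None of the genes in the 8 marker lists was at 0 in any library.

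The partners of SVEP1 and the integrins that bind angiopoietins formed a list of 7 genes, of which Itga9 had the smallest unadjusted p. Itga9, which encodes an integrin subunit needed for lymphatic valves and reported to bind SVEP1, was at 70.4, 68.9 and 69.1 CPM in lecko libraries 1 to 3, against 50.8, 65.4 and 43.7 CPM in controls 1 to 3. The lecko libraries were again close together and above the controls, of which control 2 was nearest (7.37% of all genes lay wholly above). This order was not particular to Itga9. Angptl1, described below with another list, also had all lecko libraries above the controls, with control 2 highest and control 3 lowest of these. Itga9 was not among the 2 genes with profiles nearest to that of Svep1. Its log2 fold change was 0.38 (SE 0.13, unadjusted p = 0.0229, adjusted p = 0.53 by edgeR), and it is also in the lymphatic list. Of the 7 partners and integrins 0 were called and 1, Itga9 itself, was higher at an unadjusted p under 0.05 (4.89% of all genes were). Their median log2 fold change was 0.02. Itgb1, the shared beta subunit, was at 464 ± 23.5 CPM in lecko skin and 422 ± 43.5 CPM in control skin (SD, n = 3 each).

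The partners and substrates of VE-PTP held the deleted gene. Of the 4 genes Kdr alone passed the test. Cdh5, which encodes VE-cadherin, was at 60.0, 56.3 and 52.9 CPM in lecko libraries 1 to 3, against 66.1, 65.5 and 69.4 CPM in controls 1 to 3. The groups did not overlap, with a log2 fold change of -0.25 (SE 0.06, unadjusted p = 0.00386, adjusted p = 0.43 by edgeR), and Cdh5 is also in the endothelial list above. Of all genes, 7.23% lay wholly below the controls and 7.37% wholly above. Among related receptor phosphatases, 2 of 4 had enough reads to be tested and 0 were called. Ptpro was at 15.4, 15.1 and 15.9 CPM in lecko libraries 1 to 3, against 11.8, 11.8 and 10.2 CPM in controls 1 to 3, without overlap (log2 fold change 0.46, SE 0.10, unadjusted p = 0.00116, adjusted p = 0.38 by edgeR). Ptprj, a phosphatase present in many cell types, had a log2 fold change of 0.21.

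Genes acting below TIE2 gave no call. Of 20 adaptors and effectors tested, 0 passed in either direction, 12 had a positive and 8 a negative log2 fold change, and the median was 0.01. The sole gene at an unadjusted p under 0.05 was Nos3, the endothelial nitric oxide synthase, at 7.67, 8.31 and 8.06 CPM in lecko libraries 1 to 3, against 12.2, 9.72 and 8.51 CPM in controls 1 to 3 (log2 fold change -0.34, SE 0.15, adjusted p = 0.57 by edgeR). Of all genes, 3.68% were lower and 4.89% higher at an unadjusted p under 0.05. The lecko values of Nos3 lay below all controls (7.23% of all genes did so), and control 3 was the nearest.

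Regulators of transcription known from studies of TIE and angiopoietin genes, proteases that shed the receptors and the angiopoietin-like ligands also gave 0 calls each. Of 13 regulators, 1 was lower at an unadjusted p under 0.05 (3.68% of all genes were). This gene, Epas1 (HIF-2α), was at 131, 126 and 128 CPM in lecko libraries 1 to 3, against 145, 143 and 138 CPM in controls 1 to 3. The groups did not overlap (log2 fold change -0.14, SE 0.05, adjusted p = 0.52 by edgeR), and 7.23% of all genes lay wholly below. Prox1, which sets lymphatic identity, had a log2 fold change of 0.18 with overlap, and the median of the list was 0.05. The proteases Adam10 and Adam17 each had a log2 fold change of 0.08, and the median of the 3 protease genes was also 0.08. Among 5 tested angiopoietin-like genes the median was 0.29. Angptl1 was at 54.5, 52.1 and 44.0 CPM in lecko libraries 1 to 3, against 40.2, 43.0 and 25.6 CPM in controls 1 to 3. Angptl4, an inhibitor of lipoprotein lipase, was at 23.0, 8.54 and 16.6 CPM in lecko libraries 1 to 3, against 26.9, 23.6 and 33.7 CPM in controls 1 to 3. Both genes separated the groups without passing the test (adjusted p = 0.59 and 0.61 by edgeR). In the whole list, 2 genes lay wholly above the controls (7.37% of all genes did so) and 1 wholly below (7.23% of all genes). The largest log2 fold change of the list, 0.54, belonged to a gene whose groups overlapped.

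**Figure D5:**
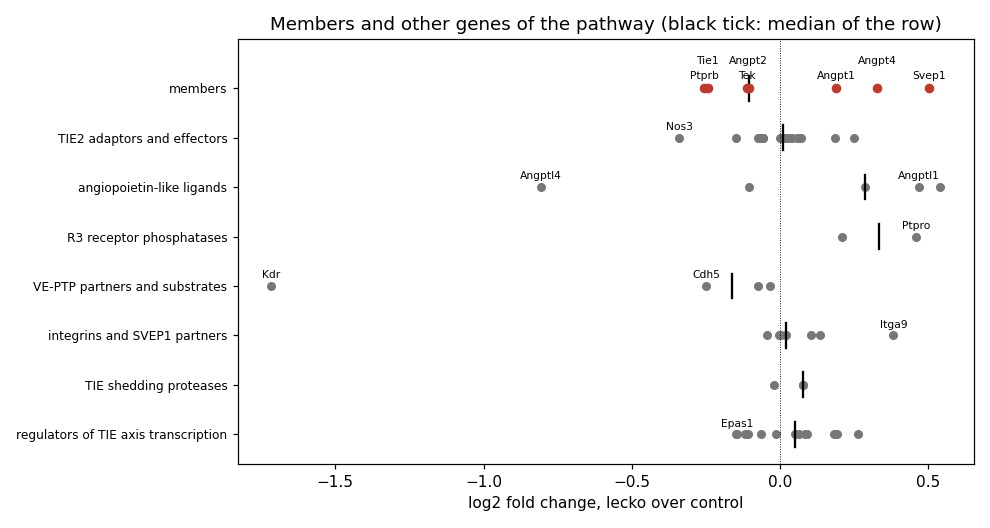
Log2 fold change, lecko over control, of the members (red) and of the tested genes of 7 pathway lists (grey), with a black tick at the median of each row and names beside genes of the lists whose groups do not overlap and that the text describes. Kdr at -1.72 stands apart, and the other genes lie between -0.81 and 0.54.

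The genes whose profiles over the 6 libraries were most like those of the members were found by the root mean square difference of log2 CPM after centring each gene, over 13582 genes. For Svep1, whose log2 CPM had an SD of 0.34 over the libraries, they were Thbs1, the matricellular protein thrombospondin 1, at a difference of 0.044, and Apobr at 0.052. Thbs1 had a log2 fold change of 0.51 and Apobr of 0.46. For Angpt4 they were Tmem241 at 0.030 and Mmp2, a gelatinase, at 0.034, and for Angpt1 they were Ccn3 at 0.035 and Rgs10 at 0.038. For Tie1 they were Rhof at 0.035 and Mmp24 at 0.036, and for Ptprb Tmem150c at 0.029 and Ttyh1 at 0.054. For Tek they were Jtb at 0.054 and Prmt2 at 0.055, and for Angpt2 Pdss2 and Rp1, both at 0.047. No member was among the nearest genes of another, and with 6 libraries and 13582 genes such matches are a description.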

How the data were processed

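The authors deposited estimated counts per gene for 6 libraries of polyadenylated RNA. The unit was read from the values: 9.60 to 10.5% of them per library are not whole. Per the submitters' processing notes the build was GRCm38.p6 and the tools were RSEM 1.3.1, Bowtie2 2.4.5 and HISAT2 2.2.1. Neither the strand setting nor the annotation is named there. Counts were rounded, filtered with filterByExpr (minimum count 10, minimum total 15) and scaled by TMM. The test was edgeR 4.0.16 in R 4.3.3, a robust quasi-likelihood fit on group alone, adjusted by Benjamini-Hochberg over all tested genes at a threshold of 0.05. A prior count of 2 entered log2 CPM. Ratios within libraries were tested by exact two-sided permutation over 20 arrangements. Levels per length used the coding transcript of GENCODE M21, and gene positions the RefSeq table of GRCm38.p6. Within groups, pairs of libraries differed by 8.14 to 16.8 times the sampling variance, so none was a duplicate. The scripts were tested on simulated counts.

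The members and lists were chosen with earlier results of these data known. Named genes were the members, Kdr, the 2 genes of each pathway list with the smallest p, and the 2 nearest profiles of each member; 1 of the pathway genes so chosen is not reported here. Alternatives were DESeq2 1.42.0, limma-voom (limma 3.58.1), other scalings and filters, a fit without robust estimation, a replicate block, sex as a covariate (Y-linked genes above 10 CPM), control 1 as the sole control, and leaving out each library. Ratios to the fibroblast, pericyte and lymphatic lists were added after the data were examined.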

Additional observations from a re-analysis of the deposited data

How the results depend on the processing

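The log2 fold changes of Angpt1, Angpt4, Tie1, Ptprb and Svep1 kept their sign in all 16 alternative fits. With sex as a covariate and against control 1 alone, Angpt2 was at 0.0437 and 0.0374 and Tek at 0.110 and 0.103, where the fit with all libraries and no covariate gave -0.11 for each, and Angpt1 was at 0.38 and 0.37 in place of 0.19. Tie1 was at -0.12 and -0.13 in place of -0.24, and Ptprb at -0.42 in both in place of -0.25. Angpt4 was at 0.37 and 0.36 in place of 0.33, and Svep1 at 0.60 in both in place of 0.50. Both fits take the group difference from control 1. Svep1 passed the threshold in 1 alternative, the fit without control 2 (log2 fold change 0.68), which made the count of called members 1 in place of 0. With each library left out in turn, the log2 fold change ranged from 0.38 to 0.68 for Svep1, 0.09 to 0.30 for Angpt1, 0.23 to 0.45 for Angpt4, -0.18 to -0.00 for Angpt2 (its value without lecko 3 was -0.0035), -0.22 to -0.02 for Tek, -0.31 to -0.20 for Tie1 and -0.39 to -0.17 for Ptprb, and the count of called members from 0 to 1. Against control 1 alone, relative to endothelial genes, Tek was at 0.25 and Tie1 at 0.0209, and Ptprb over Tek was at -0.53, in place of 0.06, -0.08 and -0.15; Tie1 over Tek was at -0.23 in place of -0.14. Leaving out single libraries moved Tek from -0.04 to 0.13, Angpt2 from -0.01 to 0.15 and Ptprb from -0.21 to 0.01 relative to endothelial genes, and Ptprb over Tek from -0.34 to 0.04. The cause of these shifts was not tested.

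Libraries numbered 1 deviated together (correlation of deviations 0.41), and those numbered 2 and 3 did not (-0.17 and 0.04); lecko 2 and lecko 3 were closest to controls 3 and 2, so the numbers were not taken as pairs. With a replicate block 0 members were called, and the log2 fold change was 0.52 for Svep1 and -0.24 for Tie1. Reads limit Angpt4 most, with 42 to 63 per library.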
